A study of Mus musculus with 15 samples.

Results

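The genes described here are 9 genes of interferon signalling and its feedback, taken as listed mouse symbols and matched to the Ensembl identifiers of the count files. They are the receptor chains Ifnar1 and Ifnar2, the transcription factors Stat2, Irf9, Irf3, Irf7 and Irf1, and the feedback regulators Usp18 and Socs1. They are 9 of the 46603 genes in the files, and all 9 were among the 15997 genes that passed the filter on low counts and were tested.

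RNA-Seq was done on mouse embryonic fibroblasts (MEFs) of the BALB/c strain, wild-type, from 10.5 day embryos, in 15 samples. All of them were kept in DMEM with 10% FBS, and no allele or agent other than the differentiation medium was applied. Cells were taken at day 0 (MEFD0), at day 3 untreated (MEFD3min) or treated (MEFD3plu), and at day 5 untreated (MEFD5min) or treated (MEFD5plu), with 3 replicates numbered 1, 3 and 4 in each condition. From confluency, treated cells received insulin (10 µg/mL), dexamethasone (1 µM), rosiglitazone (10 µM) and the phosphodiesterase inhibitor IBMX (0.5 mM) for 3 days, and the medium without these factors from day 3 to day 5. MEFs are a mixed primary culture, and the sources used here do not say whether replicates came from separate embryos or cultures, so p-values measure the spread between these samples, which may be technical.

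Type I interferons bind the receptor formed by Ifnar1 and Ifnar2, whose kinases Tyk2 and Jak1 phosphorylate Stat2. Stat2 and Irf9 are parts of the complex ISGF3, which binds interferon-stimulated response elements, while gamma-activated sites are the elements of the interferon-gamma response. Irf3 and Irf7 drive transcription of the interferon genes themselves, Irf1 is a transcription factor induced by interferon-gamma, Usp18 removes Isg15 from proteins and blocks signalling at Ifnar2, and Socs1 inhibits the Jak kinases. Several of these genes, Irf7, Irf9, Stat2 and Usp18 among them, are themselves induced by interferon.

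The sequence before the start of 4 of the genes is shown, because they differ in whether they hold one of these motifs and in how far their levels moved. A RefSeq window (GRCm38.p6) from 250 bases before to 50 bases after a start was held for 8 of the 9 genes, all but Usp18. The interferon-stimulated response element was searched on both strands as GAAA, any 2 bases and GAAA again, and the gamma-activated site as TTCNNNGAA, which reads the same on both strands. The stretches below are written 5′ to 3′ on the strand of the gene and keep to bases that no annotated exon covers, with matches in capitals. They lie at chr10:128270248-128270497 (+) for Stat2, chr11:53769764-53770013 (+) for Irf1, chr16:10785537-10785786 (-) for Socs1 and chr7:141266482-141266674 (-) for Irf7.
Stat2: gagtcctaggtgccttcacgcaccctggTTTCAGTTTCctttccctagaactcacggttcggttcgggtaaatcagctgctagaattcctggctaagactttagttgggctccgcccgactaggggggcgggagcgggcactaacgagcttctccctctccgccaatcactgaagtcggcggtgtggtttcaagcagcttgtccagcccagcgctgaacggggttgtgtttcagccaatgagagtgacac
Irf1: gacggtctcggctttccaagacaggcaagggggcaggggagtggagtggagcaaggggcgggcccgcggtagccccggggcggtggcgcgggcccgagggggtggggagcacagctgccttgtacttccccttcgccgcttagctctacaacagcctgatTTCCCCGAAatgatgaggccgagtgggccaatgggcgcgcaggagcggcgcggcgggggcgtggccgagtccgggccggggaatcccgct
Socs1: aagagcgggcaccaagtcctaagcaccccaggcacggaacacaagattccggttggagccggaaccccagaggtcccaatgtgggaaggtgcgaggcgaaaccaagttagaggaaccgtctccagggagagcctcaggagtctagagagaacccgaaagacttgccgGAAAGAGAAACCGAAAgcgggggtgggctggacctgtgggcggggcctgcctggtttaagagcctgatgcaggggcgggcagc
Irf7: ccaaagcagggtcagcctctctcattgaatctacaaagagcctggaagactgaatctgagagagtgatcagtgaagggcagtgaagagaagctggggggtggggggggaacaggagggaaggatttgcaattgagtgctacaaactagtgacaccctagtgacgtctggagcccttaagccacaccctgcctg

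Stat2 held a response element at -222 to -213 from its start, on the opposite strand, where it reads TTTCAGTTTC on the strand of the gene. Socs1 held a pair of overlapping response elements, GAAAGAGAAA at -83 to -74 and GAAACCGAAA at -77 to -68. Irf1 held the gamma-activated site TTCCCCGAA at -90 to -82. Ifnar2 held TTCCTGGAA at -214 to -206, and Ifnar1 held TTCACGGAA across its start, from -5 to 4. In Irf3, Irf7 and Irf9 neither set of letters was in the windows. Over all 32851 windows of the same length, 3.44% held the response element and 8.3% the gamma-activated site. Among the 25 windows of the interferon-stimulated effectors named further on, those shares were 44% and 24%. A match describes letters in a window and is no evidence of binding, and the absence of one says only that these letters were not in that window.

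**Figure D1:**
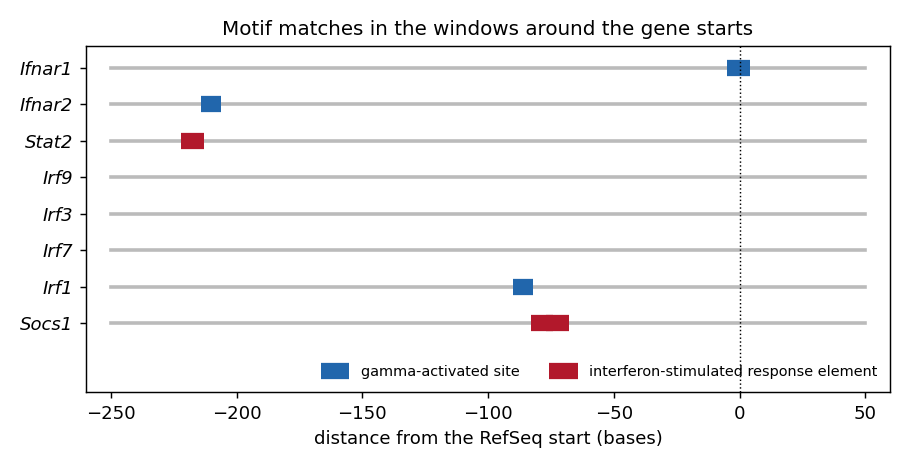
Matches to the interferon-stimulated response element (red) and the gamma-activated site (blue) in the first RefSeq window of 8 genes, plotted by distance in bases from the start (dotted line, grey bars span the window). Stat2 and Socs1 hold the response element, and Irf1, Ifnar2 and Ifnar1 the gamma-activated site.

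Total counts per sample ranged from 24030558 to 37281126. Levels are given as CPM, counts scaled to library size with edgeR's TMM method, and differences as log2 fold changes from an edgeR quasi-likelihood fit over all 15 samples, with p-values adjusted by the Benjamini-Hochberg method over the 15997 genes of a comparison. A gene was called where the adjusted p was under 0.05. MEFD5min replicate 3, the sample with the fewest counts, lay below both other MEFD5min samples for 8 of the 9 genes (88.9%), against 37.8% of all genes tested, so the day 5 treatment differences are also given without it. Fibroblast markers were present in every condition, and the sum of 10 genes was 25000 to 36310 CPM in MEFD3min and 10538 to 16373 CPM elsewhere. In MEFD3plu/MEFD3min 8 of the 10 were lower and 1 was higher, against 28% and 28% of all genes tested. The sum of 8 adipocyte markers was 42.2 to 65.2 CPM in the 9 samples without treatment and 7550 to 11633 CPM in the 6 treated ones. The sum of 10 macrophage markers was lowest in MEFD3plu (6.09 to 7.81 CPM) and highest in MEFD5min (13.3 to 15.2 CPM). In each condition 5 or 6 of the 10 were at or under 3 counts in all its samples. Among these were Adgre1, at 0 counts in all samples, and Tyrobp, at no more than 1 count. Of the 10, 4 passed the filter on low counts. In treated cells 2 of these 4 were lower and 0 higher at each day, against 28% of all genes lower at day 3 and 24.2% at day 5. From MEFD0 to MEFD3min 2 of the 4 were called higher and 2 lower, against 31.4% and 28.6% of all genes. Their log2 fold changes there ran from -1.81 to 2.77, and 1 of the 4 had a condition at or under 3 counts. Of 6 plasmacytoid dendritic cell markers, Siglech was at 0 counts in all samples, and in every condition but MEFD3min 5 of the 6 were at or under 3 counts in all its samples. Their sum was 3.91 to 5.83 CPM in MEFD0 and MEFD3plu and 199 to 1054 CPM in the other conditions, nearly all of it Bst2, which is also an interferon-stimulated gene. The sum of 6 endothelial markers was 1.00 to 1.54 CPM in MEFD0, 5.95 to 7.43 CPM in MEFD3min and 5.17 to 6.76 CPM in MEFD3plu. It was 10.0 to 18.7 CPM in MEFD5min and 11.5 to 15.4 CPM in MEFD5plu. The sum of 6 epithelial markers was 0 to 1.19 CPM. The part of these cell type markers in the results below was not tested. In bulk samples, fewer cells of a type and less RNA per cell cannot be told apart.

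At day 3, 8 of the 9 interferon signalling genes were lower in treated than in untreated cells and Irf3 was higher. Of all genes tested, 28% were lower and 28% higher. At day 5, 7 of the 9 were higher in treated cells, against 26.3% of all genes, and Ifnar1 and Ifnar2 were not called. The calls of Ifnar1 at day 3 and Irf3 at day 5 were lost in most fits that left out 1 compared sample. Usp18 was 296-fold lower, Irf7 106-fold lower, Irf9 15.1-fold lower and Stat2 5.76-fold lower in MEFD3plu than in MEFD3min. At day 5 the same 4 genes were 1.96-fold to 3.999-fold higher in MEFD5plu than in MEFD5min. Untreated cells had gained these transcripts between day 0 and day 3, and MEFD3plu stayed near the level of MEFD0. Irf3 and Ifnar1 moved little under any condition, with a highest mean 1.41 and 1.47 times the lowest.

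In MEFD3plu/MEFD3min 9 of the 9 genes were called, 1 higher and 8 lower, against 56.1% of all genes tested (28% higher and 28% lower). The samples of both conditions did not overlap for any of the 9, against 56.8% of all genes. Their median log2 fold change was -0.99, against -0.00057 over all genes tested. In 4 of the 9 the change was at least 2-fold, against 23.8% of all genes.

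In MEFD5plu/MEFD5min 7 of the 9 genes were called, all 7 higher, against 50.5% of all genes tested and 26.3% called higher. The samples did not overlap for 7 genes, against 62.1% of all genes. The median log2 fold change was 0.97, against 0.01 over all genes tested. Without MEFD5min replicate 3, 6 of the 9 were called, since Irf3 lost its call (log2 0.20, adjusted p = 0.12). The difference between the treatment effects of both days, the treatment by day interaction, was called for 7 of the 9 genes, all towards a more negative effect at day 3, against 48.5% of all genes (25.8% in that direction and 22.6% in the other). Irf3 and Ifnar1 were the genes without a called interaction. Without MEFD5min replicate 3 the interaction was again called for 7 of the 9.

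**Figure D2:**
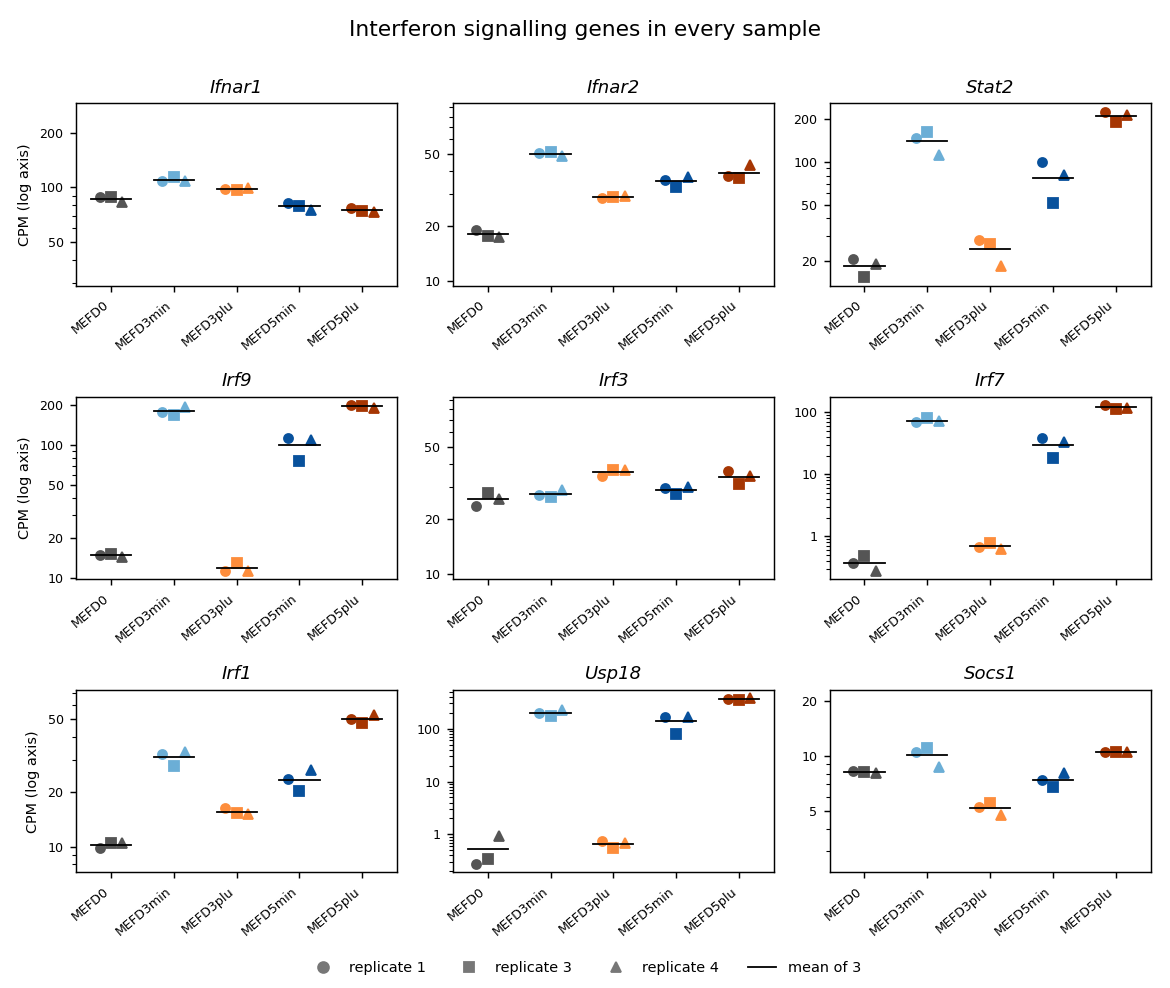
CPM (log axis) of the 9 genes in each of the 15 samples, by condition, with replicates 1, 3 and 4 as circles, squares and triangles and the mean of 3 as a line. Irf7 and Usp18 lie under 1 CPM in all MEFD0 and MEFD3plu samples and above 18 CPM in all others, whereas Ifnar1 and Irf3 stay within 73.2 to 114 and 23.6 to 37.4 CPM.

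**Figure D3:**
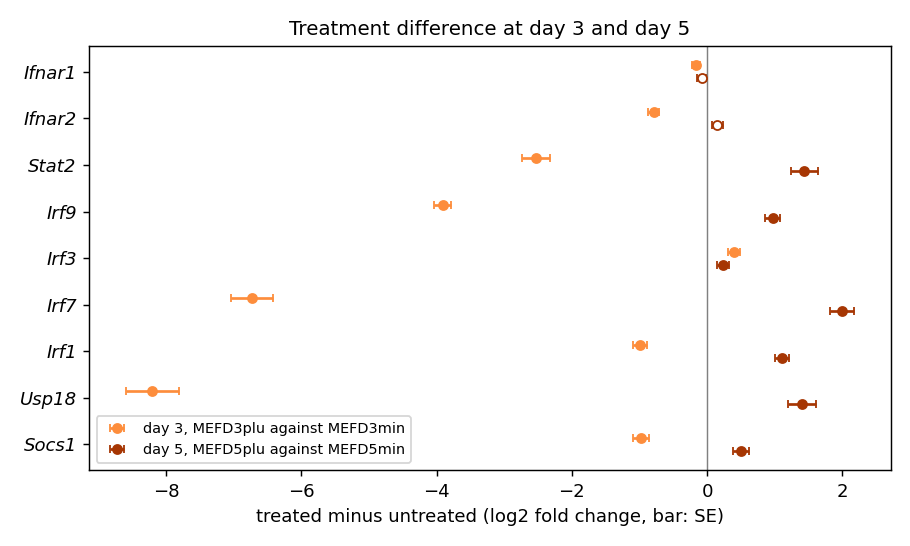
Log2 fold change of treated against untreated cells at day 3 (light) and day 5 (dark) for the 9 genes, with bars of 1 SE. Filled points were called, and the open points are Ifnar1 and Ifnar2 at day 5.

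Ifnar1 (chr16:91485238-91507441, +) codes for the signalling chain of the type I interferon receptor. In untreated cells it lay at 88.2, 88.9 and 83.6 CPM in MEFD0, at 108, 114 and 108 CPM in MEFD3min and at 81.9, 79.4 and 75.4 CPM in MEFD5min. Treated cells held 98.0, 96.7 and 99.7 CPM in MEFD3plu and 77.2, 74.0 and 73.2 CPM in MEFD5plu. The day 3 samples of both arms lay above all others, and only the day 5 arms overlapped each other. Ifnar1 was lower in MEFD3plu than in MEFD3min by a log2 fold change of -0.16 ± 0.065 (SE, n = 3 per condition, adjusted p = 0.040), a call that was lost whichever of these 6 samples was left out except MEFD3min replicate 4 (log2 -0.14 to -0.18 in the 5 fits that lost it, adjusted p = 0.062 to 0.11). At day 5 the difference was -0.08 ± 0.065 (95% interval -0.22 to 0.07, adjusted p = 0.35), and -0.07 without MEFD5min replicate 3. From MEFD3min to MEFD5min it fell by 0.48 ± 0.065 on the log2 scale, and from MEFD3plu to MEFD5plu by 0.39 ± 0.065. In order of level, MEFD3min came first, then MEFD3plu and MEFD0. The difference of MEFD3plu from MEFD0 (0.18 ± 0.065, adjusted p = 0.026) was lost with total counts alone, without the filter, with DESeq2 size factors, with only the compared samples, and without MEFD0 replicate 4, MEFD3plu replicate 1 or MEFD3plu replicate 4 (log2 0.07 to 0.18, adjusted p = 0.053 to 0.38). MEFD0 and MEFD5min (adjusted p = 0.092) and MEFD5min and MEFD5plu did not differ beyond their spread in edgeR. The samples of MEFD0 and MEFD5min did not overlap, and their difference was called with DESeq2 (log2 -0.16, adjusted p = 0.028). That of MEFD5plu from MEFD5min was called with total counts alone (log2 -0.24, adjusted p = 0.0090).

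Ifnar2 (chr16:91372783-91405589, +) codes for the chain that binds interferon with high affinity and that Usp18 occupies. Its level was 19.2, 17.8 and 17.5 CPM in MEFD0, 50.8, 51.0 and 48.6 CPM in MEFD3min and 35.8, 32.8 and 37.5 CPM in MEFD5min. In treated cells it was 28.7, 28.9 and 29.3 CPM in MEFD3plu and 37.8, 36.9 and 43.5 CPM in MEFD5plu. MEFD0 was lowest and MEFD3min highest with no overlap, and the day 5 arms overlapped. Untreated cells gained 2.76-fold from day 0 to day 3 (log2 1.47 ± 0.083, adjusted p = 1.31e-10) and treated cells 1.60-fold (log2 0.67 ± 0.083). The difference at day 3 was -0.79 ± 0.082 (1.73-fold lower in MEFD3plu, adjusted p = 2.93e-07). At day 5 it was 0.15 ± 0.082 (95% interval -0.03 to 0.34, adjusted p = 0.13), with 0.10 without MEFD5min replicate 3 and -0.0082 with scaling by total counts alone. Of the exon bases of Ifnar2, 9.46% are shared with the gene Gm21970 on the same strand, so reads there could be split between them. Unlike Ifnar1, Ifnar2 had a called interaction (-0.94 ± 0.12, adjusted p = 4.45e-06).

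Stat2 (chr10:128270559-128292849, +) codes for the STAT that binds Irf9 in ISGF3. It lay at 20.8, 15.4 and 19.2 CPM in MEFD0, at 147, 163 and 112 CPM in MEFD3min and at 99.5, 51.5 and 81.5 CPM in MEFD5min. The treated samples held 28.3, 26.7 and 18.4 CPM in MEFD3plu and 226, 192 and 213 CPM in MEFD5plu. MEFD0 and MEFD3plu overlapped at the low end, and every MEFD5plu sample lay above all others. MEFD3plu was 5.76-fold lower than MEFD3min (log2 -2.53 ± 0.20, adjusted p = 2.37e-08), and MEFD5plu was 2.71-fold higher than MEFD5min (log2 1.44 ± 0.20, adjusted p = 1.87e-05; 2.32-fold without MEFD5min replicate 3). The interaction was -3.96 ± 0.29. MEFD5plu was above MEFD3min by 0.58 ± 0.20 (adjusted p = 0.020), a call lost without MEFD3min replicate 4 (log2 0.44, adjusted p = 0.072) and without MEFD5plu replicate 1 (log2 0.53, adjusted p = 0.062). MEFD3plu and MEFD0 did not differ beyond their spread (0.40 ± 0.21, adjusted p = 0.11), but this difference was called without MEFD3plu replicate 4 (log2 0.58, adjusted p = 0.029), with only the compared samples (adjusted p = 0.047) and without the filter on low counts (adjusted p = 0.00089).

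Irf9 (chr14:55603571-55610030, +) codes for the DNA-binding part of ISGF3. Its levels were 14.9, 15.2 and 14.5 CPM in MEFD0, 177, 168 and 193 CPM in MEFD3min and 114, 76.4 and 110 CPM in MEFD5min. In MEFD3plu they were 11.3, 13.0 and 11.4 CPM and in MEFD5plu 200.2, 197 and 192 CPM. MEFD3plu was the lowest condition and all of its samples lay below MEFD0, while MEFD3min and MEFD5plu overlapped at the top. The day 3 difference was 15.1-fold (log2 -3.91 ± 0.12, adjusted p = 1.63e-13), and the day 5 difference was 1.96-fold in the other direction (log2 0.97 ± 0.11, adjusted p = 2.54e-06; 1.75-fold without MEFD5min replicate 3). The interaction was -4.88 ± 0.17. MEFD5plu and MEFD3min did not differ beyond their spread (0.13 ± 0.11, 95% interval -0.12 to 0.38, adjusted p = 0.34). Irf9 was the 1 of these transcription factors that fell below its day 0 level in treated cells (MEFD3plu/MEFD0 -0.32 ± 0.12, adjusted p = 0.033), a call lost without any single one of the 3 MEFD0 samples or without MEFD3plu replicate 1 or 4 (log2 -0.29 to -0.34, adjusted p = 0.051 to 0.10). Of its exon bases, 2.28% are shared with Rnf31 on the same strand.

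Irf3 (chr7:44997648-45002848, +) is expressed without stimulation in most cells and is activated by phosphorylation. It lay at 23.6, 27.8 and 25.7 CPM in MEFD0, at 27.1, 26.5 and 29.0 CPM in MEFD3min and at 29.7, 27.5 and 29.9 CPM in MEFD5min. Treated cells held 34.5, 37.1 and 37.4 CPM in MEFD3plu and 36.7, 31.2 and 34.6 CPM in MEFD5plu. The 3 untreated conditions overlapped, and the treated samples of a day lay above the untreated ones. It was the 1 gene of the 9 that was higher in treated cells at day 3 (1.32-fold, log2 0.40 ± 0.087, adjusted p = 0.00084). The day 5 difference was 0.23 ± 0.087 (1.18-fold, adjusted p = 0.033), a call that was lost without any single one of these 6 samples except MEFD5plu replicate 3 (log2 0.18 to 0.25, adjusted p = 0.060 to 0.14). It was also lost with DESeq2 (log2 0.19, adjusted p = 0.093) and with scaling by total counts alone (log2 0.07, adjusted p = 0.49). The interaction was 0.17 ± 0.12 (adjusted p = 0.29). MEFD3plu and MEFD5plu, MEFD5min and MEFD3min, and MEFD3min and MEFD0 did not differ beyond their spread.

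Irf7 (chr7:141262706-141266481, -) codes for the factor that amplifies interferon-alpha transcription. In MEFD0 it had 11, 18 and 10 counts, which is 0.38, 0.48 and 0.28 CPM, and in MEFD3plu 20, 25 and 22 counts, which is 0.68, 0.78 and 0.62 CPM. The other conditions held 69.1, 80.6 and 72.2 CPM (MEFD3min), 38.7, 18.3 and 33.2 CPM (MEFD5min) and 132, 112 and 118 CPM (MEFD5plu). Nearly all of its signal was therefore in 3 of the 5 conditions, and none of these 3 overlapped. The gain in untreated cells from day 0 to day 3 was 193-fold (log2 7.59 ± 0.38, adjusted p = 8.39e-13). MEFD3plu was 106-fold lower than MEFD3min (log2 -6.73 ± 0.31, adjusted p = 1.23e-12), and MEFD5plu was 3.999-fold higher than MEFD5min (log2 2.0 ± 0.18, adjusted p = 1.17e-07; 3.36-fold without MEFD5min replicate 3). From MEFD3plu to MEFD5plu, after the factors had been removed, it rose 173-fold (log2 7.44 ± 0.31). MEFD3plu and MEFD0 did not differ beyond their spread in edgeR (0.86 ± 0.45, adjusted p = 0.10), although their samples did not overlap and the difference was called with DESeq2 (adjusted p = 0.033) and without the filter on low counts (adjusted p = 0.0080).

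Irf1 (chr11:53770014-53778374, +) was highest in MEFD5plu and lowest in MEFD0. Its levels were 9.84, 10.4 and 10.4 CPM in MEFD0, 32.3, 27.6 and 33.1 CPM in MEFD3min and 23.5, 20.2 and 26.3 CPM in MEFD5min. Treated cells held 16.4, 15.3 and 15.1 CPM in MEFD3plu and 50.5, 47.5 and 53.1 CPM in MEFD5plu. No condition overlapped another, and each of the 5 differed from its neighbour in order of level, MEFD5plu, MEFD3min, MEFD5min, MEFD3plu and MEFD0. MEFD3plu was 1.99-fold lower than MEFD3min (log2 -0.99 ± 0.10, adjusted p = 2.61e-07) and MEFD5plu 2.16-fold higher than MEFD5min (log2 1.11 ± 0.099, adjusted p = 1.15e-07; 2.02-fold without MEFD5min replicate 3). Irf1 was called higher in MEFD3plu than in MEFD0 (1.52-fold, log2 0.60 ± 0.11, adjusted p = 7.93e-05).

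Usp18 (chr6:121245906-121270917, +) had the widest range of the 9 genes, with a mean in MEFD5plu 700.1-fold that in MEFD0. This ratio was 565.7-fold without MEFD0 replicate 1 and 598.2-fold without replicate 3. It was 1182-fold without replicate 4, which had more counts than the other MEFD0 samples. Usp18 had 8, 13 and 34 counts in MEFD0 (0.27, 0.34 and 0.95 CPM) and 22, 18 and 24 counts in MEFD3plu (0.75, 0.56 and 0.68 CPM). The other samples lay at 197, 172 and 222 CPM in MEFD3min, 165, 80.3 and 169 CPM in MEFD5min and 370, 354 and 373 CPM in MEFD5plu. MEFD0 and MEFD3plu overlapped, and every MEFD5plu sample was above all others. MEFD3plu was 296-fold lower than MEFD3min (log2 -8.21 ± 0.39, adjusted p = 2.14e-12), and MEFD5plu was 2.65-fold higher than MEFD5min (log2 1.40 ± 0.21, adjusted p = 4.61e-05; 2.19-fold without MEFD5min replicate 3). In treated cells it rose 550-fold from day 3 to day 5 (log2 9.10 ± 0.39, adjusted p = 2.56e-12). MEFD5min was not called against MEFD3min (-0.51 ± 0.21, adjusted p = 0.065), and this was called without MEFD3min replicate 3 (log2 -0.60, adjusted p = 0.038), MEFD5min replicate 1 (log2 -0.65, adjusted p = 0.043) or MEFD5min replicate 4 (log2 -0.68, adjusted p = 0.034). It was also called with a replicate block (log2 -0.55, adjusted p = 0.0066) and without the filter on low counts (log2 -0.55, adjusted p = 1.04e-06). Without MEFD5min replicate 3 that difference was -0.23 (adjusted p = 0.26). Of its exon bases, 4.44% lie opposite the noncoding gene Gm44148.

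Socs1 (chr16:10782240-10785536, -) stayed between 4.76 and 11.1 CPM in all 15 samples. It lay at 8.26, 8.19 and 8.12 CPM in MEFD0, at 10.6, 11.1 and 8.74 CPM in MEFD3min and at 7.40, 6.77 and 8.03 CPM in MEFD5min. Treated cells held 5.25, 5.51 and 4.76 CPM in MEFD3plu and 10.5, 10.5 and 10.5 CPM in MEFD5plu. MEFD3plu was the lowest condition, with all its samples below those of the other 4, and MEFD3min and MEFD5plu overlapped. The day 3 difference was 1.96-fold (log2 -0.97 ± 0.12, adjusted p = 1.83e-06) and the day 5 difference 1.42-fold in the other direction (log2 0.50 ± 0.11, adjusted p = 0.0015; 1.36-fold without MEFD5min replicate 3). Socs1 fell below its day 0 level in treated cells (MEFD3plu/MEFD0 -0.66 ± 0.12, adjusted p = 9.997e-05). Its rise from MEFD0 to MEFD3min (0.31 ± 0.11, adjusted p = 0.026) was not called without any single one of the 3 MEFD0 samples or without MEFD3min replicate 1 or 3 (log2 0.24 to 0.31, adjusted p = 0.054 to 0.11).

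Across time in untreated cells, 8 of the 9 genes were called higher in MEFD3min than in MEFD0, all but Irf3 (0.10 ± 0.087, adjusted p = 0.34), against 31.4% of all genes tested called higher and 60% called in either direction. The samples did not overlap for 8 of the 9, against 60.3% of all genes. The median log2 fold change was 1.60, against 0.04 over all genes. From MEFD3min to MEFD5min 7 of the 9 were called, all lower, against 42.8% of all genes called and 21.5% called lower. MEFD5min still lay above MEFD0 for 6 of the 9 genes, against 46.4% called and 24.5% called higher, and the samples did not overlap for 8, against 57.4% of all genes. Of these 8, Ifnar1 (log2 -0.14) and Socs1 (log2 -0.14) lay lower in MEFD5min. The genes not called there were Irf3, Ifnar1 and Socs1. Without MEFD5min replicate 3, 7 and 6 of the 9 were called in these comparisons, as with it.

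In treated cells the order of days was the reverse. Against MEFD0, MEFD3plu had 6 of the 9 genes called (4 higher and 2 lower, against 63.5% of all genes called), and in none of the 9 did the change reach 2-fold and a call, against 31% of all genes. From MEFD3plu to MEFD5plu 8 of the 9 were called (7 higher and 1 lower, against 63% of all genes), with 6 changes of at least 2-fold against 24.9% and 8 genes whose samples did not overlap against 69.6%. The gene that fell was Ifnar1, and Irf3 was not called (-0.09 ± 0.087, adjusted p = 0.39). MEFD5plu differed from MEFD0 in 9 of the 9 genes, 8 higher and Ifnar1 lower, against 65% of all genes called (35.2% higher and 29.8% lower), and the samples overlapped for none of the 9, against 72.3% of all genes without overlap. In MEFD5plu/MEFD3min 7 of the 9 were called, 5 higher and both receptor chains lower, against 56.7% of all genes, and the samples did not overlap for 7, against 59%. These comparisons share conditions, so their counts are not independent of each other.

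Compared per length, as CPM divided by the exon length in kilobases, the genes changed rank between conditions. In MEFD0 the highest of the 9 was Ifnar1 at 14.6 ± 0.48 (SD, n = 3) and the lowest was Irf7 at 0.10 ± 0.026. In MEFD5plu Usp18 stood highest at 131 ± 3.8, followed by Irf9 at 36.4 ± 0.79, Stat2 at 35.5 ± 2.9 and Irf7 at 32.0 ± 2.6, while Ifnar1 was at 12.6 ± 0.35. Both receptor chains were closer to each other in level in MEFD3min (Ifnar1 18.5 ± 0.59, Ifnar2 15.1 ± 0.39) than in MEFD0 (Ifnar2 5.45 ± 0.27).

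Over the 15 samples, which share their 5 conditions in groups of 3, the log2 CPM of Irf7, Irf9, Usp18 and Stat2 correlated with each other at Pearson's r of 0.95 to 0.99. Irf1 correlated with these 4 at 0.90 to 0.96 and Ifnar2 at 0.83 to 0.88. Irf3 and Ifnar1 correlated with none of the other 8 genes above 0.35 and 0.20. Candidates were 9359 other protein-coding genes whose log2 CPM averaged 3 or more over the samples. The 3 genes most like Irf7 were Tap1 (r = 0.997), Uba7 (0.997) and Bst2 (0.996). For Irf9 they were Isg15 (0.996), Bst2 (0.995) and Xaf1 (0.994), for Usp18 Ifi27l2a (0.997), Ifi44 (0.996) and Bst2 (0.996), and for Stat2 Parp12 (0.992), Ly6e (0.986) and Ddx58 (0.985). For Irf1 they were Tor1aip2 (0.993), Azi2 (0.991) and Sp140 (0.991). The receptor chains had other neighbours, Morc4 (0.989), Laptm4b (0.986) and Asah2 (0.985) for Ifnar2, and Mbtps1 (0.968), Ccdc102a (0.966) and Atrnl1 (0.963) for Ifnar1. Irf3 was most like Lmbr1 (0.951), Cox15 (0.944) and Gprc5b (0.942), and Socs1 most like Lynx1 (0.935), Armcx1 (0.931) and Tdrd7 (0.927). These values describe how samples of the same conditions line up. By Spearman's rho 2 of the 3 named genes were named again for Irf7, and 1 for Stat2, Irf3, Usp18 and Socs1. For Irf1, Irf9, Ifnar1 and Ifnar2 0 of the 3 were named again.

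Of 6 other receptors and kinases tested, 1 was higher and 3 lower in MEFD3plu than in MEFD3min, against 28% and 28% of all genes. In MEFD5plu against MEFD5min, 2 of the 6 were higher and 1 lower, against 26.3% and 24.2%. Ifngr1, the ligand-binding chain of the interferon-gamma receptor, showed the largest increase at both days, from 52.9 ± 3.3 to 185 ± 10 CPM (SD, n = 3) at day 3 (log2 1.81 ± 0.082, adjusted p = 1.08e-11) and from 46.4 ± 5.0 to 104 ± 4.2 CPM at day 5 (log2 1.16 ± 0.083, adjusted p = 7.27e-09). Its partner Ifngr2 was lower in treated cells at day 3 (log2 -0.37, adjusted p = 0.0015) and day 5 (log2 -0.26, adjusted p = 0.022), and the day 5 call was lost without MEFD5min replicate 3 (log2 -0.24, adjusted p = 0.060). The receptor kinase Jak2 showed the largest decrease at day 3 (log2 -0.39 ± 0.071). Jak1 was lower at day 3 (log2 -0.21, adjusted p = 0.014) and at -0.10 at day 5 (adjusted p = 0.25), and Tyk2 was called at neither day (log2 -0.12 and -0.15).

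Over all genes tested, 28% were higher and 28% lower in treated cells at day 3, and 26.3% higher and 24.2% lower at day 5. Among other STATs, 4 of 5 were tested, and 2 were higher and none lower in treated cells at each day. Stat5a, which carries cytokine and growth hormone signals, showed the largest increase at both days. It rose from 9.59 ± 1.8 to 43.5 ± 4.9 CPM (SD, n = 3) at day 3 (log2 2.18 ± 0.14, adjusted p = 1.34e-09) and from 5.44 ± 0.50 to 15.8 ± 2.7 CPM at day 5 (log2 1.53 ± 0.15, adjusted p = 4.21e-07). Of 5 other IRFs only Irf2 and Irf5 passed the filter on low counts, and Irf2 was higher in MEFD3plu than in MEFD3min (log2 0.62 ± 0.15, adjusted p = 0.0015). Of 11 other feedback regulators, 3 were higher and 3 lower at day 3, led by Socs2 (log2 1.10 ± 0.13) and Cish (log2 -1.004 ± 0.22), and 1 was higher and 6 lower at day 5, led by Ptpn2 (log2 0.33 ± 0.11) and Socs2 (log2 -0.63 ± 0.13). Without MEFD5min replicate 3 the call of Ptpn2 was lost (log2 0.31, adjusted p = 0.058) and that of Socs2 was not (log2 -0.74).

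Of 10 tested kinases and adaptors that lead to Irf3 and Irf7, 3 were higher and 4 lower at day 3, against 28% and 28% of all genes. At day 5, 4 were higher and 3 lower, against 26.3% and 24.2%. Tmem173, the DNA-sensing adaptor also called STING, fell most at day 3, from 156 ± 15 CPM in MEFD3min to 17.4 ± 1.5 CPM in MEFD3plu (log2 -3.16 ± 0.13, adjusted p = 6.18e-12), and Mavs rose most (log2 0.44 ± 0.10). At day 5 Myd88 rose most (log2 0.87 ± 0.099, adjusted p = 1.88e-06) and Traf3 fell most (log2 -0.82 ± 0.13, adjusted p = 8.60e-05).

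Transcripts of the interferons themselves were near the limit of detection. Of 21 interferon genes in the files, 11 had no count in any sample, 16 had at most 3 counts in every sample, and none passed the filter. Ifnb1 had 0, 0 and 1 counts in MEFD0, 1, 4 and 1 in MEFD3min, 0, 0 and 0 in MEFD3plu, 5, 1 and 6 in MEFD5min and 8, 13 and 19 in MEFD5plu. Every MEFD5plu sample lay above all others, and against the floor of 3 counts per library MEFD5plu was at least 4.38-fold higher than MEFD3plu. Ifna4 had 11, 19 and 10 counts in MEFD5plu and at most 3 in any other sample, which is at least 4.42-fold higher than in MEFD3plu and 4.41-fold higher than in MEFD5min. In an edgeR fit without the filter, MEFD5plu against MEFD5min had an adjusted p of 0.085 for Ifnb1 and 0.0058 for Ifna4. The interferon-alpha genes are near-identical copies, so the assignment of these reads to Ifna4 is uncertain. A count of 0 limits what could be detected at this depth and does not show that no transcript was made.

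The genes that interferon induces moved with Stat2, Irf7, Irf9 and Usp18. Of 31 interferon-stimulated effectors, which are antiviral genes, 29 were tested. All 29 were lower in MEFD3plu than in MEFD3min, against 28% of all genes tested. Their median log2 fold change was -6.53, or -5.97 with 5 genes that had a condition at or under 3 counts set to that floor. All 29 were higher in MEFD5plu than in MEFD5min (median 1.79), against 26.3% of all genes. Without MEFD5min replicate 3 again 29 were higher, with a median of 1.54. That replicate lay below both other MEFD5min samples for 27 of the 29 (93.1%). Isg15, a ubiquitin-like modifier and the substrate of Usp18, was at 0.83 ± 0.20 CPM (SD, n = 3) in MEFD0. It lay at 241 ± 60 CPM in untreated and 0.67 ± 0.15 CPM in treated cells at day 3, and at 89.4 ± 47 CPM in untreated and 515 ± 12 CPM in treated cells at day 5. Ifit1, which binds viral RNA, had the same order of conditions, from 6.97 ± 0.14 CPM in MEFD3plu and 12.8 ± 0.52 CPM in MEFD0 to 1249 ± 48 CPM in MEFD5plu. Zbp1, a sensor of nucleic acids, had no count in MEFD3plu, so it was at least 115-fold lower there than in MEFD3min (10.8 ± 1.3 CPM). At day 5 it had the largest fitted increase of the list, 22.4-fold from MEFD5min to MEFD5plu, or 17.1-fold without MEFD5min replicate 3.

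Of 19 targets of interferon-gamma, 18 were tested, and 17 were lower at day 3, against 28% of all genes. Their median log2 fold change was -5.37, or -4.86 with 2 genes set to the floor. At day 5 16 were higher and 1 was lower (median 1.87), against 26.3% and 24.2% of all genes. Without MEFD5min replicate 3 these counts were 15 and 1. Ifng itself had at most 1 count in any sample. Whether any interferon acted on these genes, and which, was not tested. Gbp4, a guanylate-binding protein, had no count in MEFD3plu at day 3 and was at least 18.4-fold lower than in MEFD3min. Iigp1, an immunity-related GTPase, rose most at day 5, from 56.6 ± 27 to 508 ± 18 CPM (log2 3.16 ± 0.27, adjusted p = 1.60e-07; 7.03-fold in place of 8.93-fold without MEFD5min replicate 3). Nlrc5, the activator of MHC class I genes, was the 1 target that was lower in treated cells at day 5 as well (log2 -0.44 ± 0.12, adjusted p = 0.0050).

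**Figure D4:**
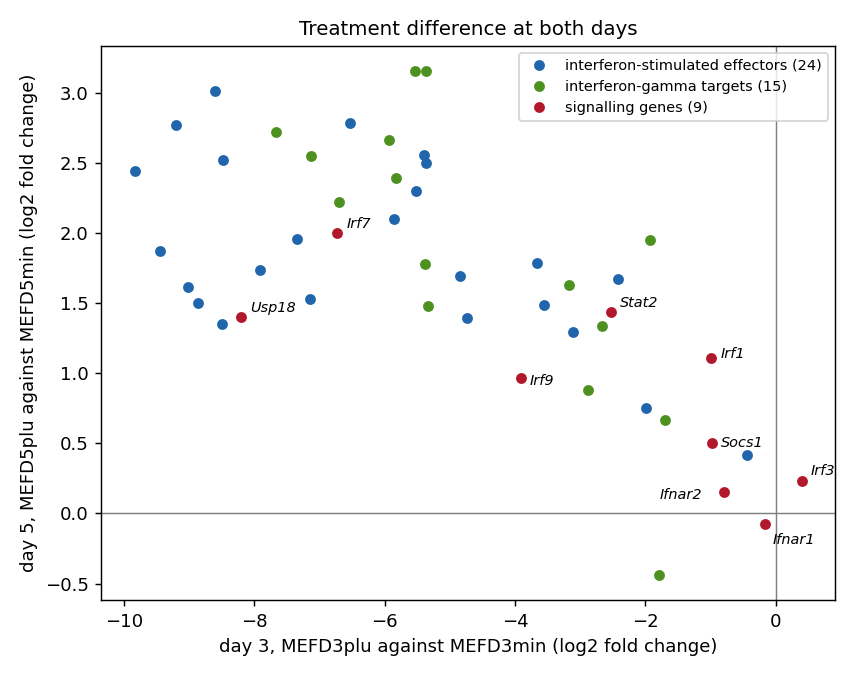
Log2 fold change of treated against untreated cells at day 3 (horizontal axis) and at day 5 (vertical axis) for the 9 signalling genes (red), 24 effectors (blue) and 15 interferon-gamma targets (green). Genes with a condition at or under 3 counts in all samples (5 effectors and 3 targets) were left out, and all 24 effectors lie at the upper left, lower at day 3 and higher at day 5.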

How the data were processed

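RNA-Seq was done in 15 MEF samples, 3 per condition. The authors aligned reads to GRCm38/mm10 and deposited raw counts of reads per Ensembl gene, without normalization. The submitters' processing notes name TopHat2 2.1.0, HTSeq and DESeq2. The annotation release, the strand setting and how reads with several matches were counted are not given in the sources used here, and the labels and the paper name different library kits, of which 1 marks strand, so reads over exons shared with another gene may be assigned either way.

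Of 46603 identifiers, 46005 had a name in GENCODE M21 (GRCm38). With edgeR 4.0.16 (R 4.3.3), filterByExpr retained 15997 genes, libraries were scaled by TMM and all comparisons were taken from 1 quasi-likelihood fit (glmQLFit, glmQLFTest) over 15 samples with no covariates. Standard errors come from that fit and its moderated variance. The 95% intervals use its 10 residual degrees of freedom alone, so they are wider than the tests beside them imply. Total counts ranged from 24030558 to 37281126, and the floor of 3 counts per sample covers counting error only. No replicates were copies of each other. Correlations were taken over log2 CPM (prior count 2). The steps were tested on simulated counts.

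The genes, the lists and the tests were chosen with earlier results of these data known. The text names the 9 genes in every comparison, the 3 genes most like each, the largest called increase and decrease of each other list at day 3 and day 5, and Jak1, Tyk2, Ifngr1, Ifngr2, Ifnb1, Isg15 and Ifit1. A further gene of that rule is not reported here. Alternatives were DESeq2 1.42.0, its size factors in edgeR, total counts alone, no filter, at least 10 counts in every sample, only the compared samples, a threshold of 0.01 on the adjusted p, a 2-fold minimum beside it, a block for the replicate number, and leaving out single samples. Replicate numbers were taken to pair MEFD3min with MEFD3plu, where the deviations from the condition means correlated at 0.14, 0.23 and 0.36 over genes in the 3 same-numbered pairs. Whether they pair other conditions is not known. The values of genes other than the 9 without MEFD5min replicate 3, and the ratio for Usp18 without single MEFD0 samples, were added after seeing the data.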

Additional observations from a re-analysis of the deposited data

Results flagged for a closer look

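The treatment effect differed between day 3 and day 5, by the interaction term of the edgeR fit, for 23 of 30 tested genes given with a treatment difference, against 48.5% of all genes tested. Many of the 30 were named for a large change at 1 of both days, so this count is not independent of the choice. The values below are the log2 fold change of treated against untreated cells at day 3 minus that at day 5. Among the 9 signalling genes they were -9.61 for Usp18, -8.73 for Irf7, -4.88 for Irf9, -3.96 for Stat2, -2.10 for Irf1, -1.48 for Socs1 and -0.94 for Ifnar2. Among the other pathway genes they were -2.92 for Tmem173, -1.21 for Myd88, -0.69 for Il10rb, -0.51 for Ptpn2 and -0.26 for Jak2. Positive values were found for Socs2 (1.74), Irf2 (0.66), Ifngr1 (0.65), Stat5a (0.64) and Mavs (0.46). Among the induced genes they were -11 for Isg15, -9.32 for Ifit1, -8.52 for Iigp1 and -1.36 for Nlrc5. For Zbp1 and Gbp4, which had no count in MEFD3plu, they were at most -11.38 and -5.46 with that condition set to 3 counts per library.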

How the results depend on the processing

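The 9 genes gave 682 log2 fold changes under other settings, of which 648 kept their direction and call, 20 lost and 9 gained a call and 5 changed sign. Leaving out 1 sample gave 648 more, of which 618 kept both, 25 lost and 4 gained a call and 1 changed sign. None of the 6 was called. With total counts alone these were Ifnar2 in MEFD5plu/MEFD5min (-0.0082), the interaction of Ifnar1 (0.10), Irf3 in MEFD3min/MEFD0 (-0.024) and Socs1 in MEFD5plu/MEFD3min (-0.017). Socs1 there was also -0.0063 with only the compared samples, and -0.048 without MEFD3min replicate 4 to 0.12 without MEFD3min replicate 3. The causes were not tested. With 1 sample left out, 8 to 9 of the 9 genes were called in MEFD3plu/MEFD3min, 6 to 7 in MEFD5plu/MEFD5min, 7 in the interaction and 4 to 6 in MEFD3plu/MEFD0. Over all genes these counts were 8157 to 9283, 6818 to 7692, 7032 to 8498 and 9482 to 9805, of 16388 to 16481 tested. With a change of at least 2-fold, 4 genes were called in MEFD3plu/MEFD3min (23.8% of all genes), 4 in MEFD5plu/MEFD5min (15.3%) and 1 in MEFD5min/MEFD3min (13.4%). In MEFD3plu/MEFD0 (31%) and MEFD5plu/MEFD3min (17.6%) 0 were called, and in MEFD5min/MEFD3plu (28.9%) 4. In the interaction (21.8%), MEFD3min/MEFD0 (25.4%), MEFD5plu/MEFD3plu (24.9%) and MEFD5plu/MEFD0 (28.7%) 6 were called, and in MEFD5min/MEFD0 (15.2%) 5. Total counts alone moved the share of called genes that were higher from 52.1% to 37% in MEFD5plu/MEFD5min and from 46.7% to 59.5% in the interaction, with the median of all genes at -0.15 and 0.15 (log2), from 49.7% to 62.7% in MEFD5min/MEFD3min and from 54.2% to 43.7% in MEFD5plu/MEFD0. Usp18 could not be tested with at least 10 counts in every sample. Depth limits Irf7 and Usp18 in MEFD0 and MEFD3plu, where they had 8 to 34 counts, and the interferon genes.

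With a replicate block, the same number of genes was called in every comparison except MEFD5min/MEFD3min, where 8 in place of 7 were called because Usp18 gained a call (-0.55, adjusted p = 0.0066). Over 30 pairs of samples with the same number, the correlation of their deviations from the condition means lay between -0.15 and 0.36 and exceeded 0.1 in 10. All 3 pairs of MEFD3min and MEFD3plu exceeded 0.1 (0.14, 0.23 and 0.36), so the numbers were taken to pair these day 3 samples, where the block changed no call of the 9 genes. For no other pair of conditions did all 3 exceed 0.1, although MEFD0 gave 0.08, 0.13 and 0.18 with MEFD3min and 0.12, 0.07 and 0.11 with MEFD3plu. Of the 15 samples, 11 correlated best with their own number. The labels do not say what the numbers share, so whether samples outside the day 3 pairs are matched is not known.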

Other observations

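Ifnar2, Il10rb, Ifnar1 and Ifngr2 lie beside each other on chromosome 16 between 91372783 and 91565623 (GRCm38, all on the + strand) and code for chains of related receptors. Il10rb was chosen after its values were seen. At day 3 the treatment difference (log2) was -0.79 for Ifnar2, -0.07 for Il10rb, -0.16 for Ifnar1 and -0.37 for Ifngr2, and all but Il10rb (adjusted p = 0.62) were called. At day 5 it was 0.15 for Ifnar2, 0.62 for Il10rb (adjusted p = 0.00021), -0.08 for Ifnar1 and -0.26 for Ifngr2. From MEFD0 to MEFD3min, Ifnar2 rose from 18.2 ± 0.91 to 50.1 ± 1.3 CPM (SD, n = 3), whereas Ifngr2 stood at 138 ± 7.7 and 109 ± 14 CPM.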
